A study of Mus musculus with 8 samples.

Results

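The 7 mesenchymal transcription factor genes Twist1, Twist2, Snai1, Snai2, Zeb1, Zeb2 and Prrx1 were followed in SN4741, a mouse cell line profiled by single-cell RNA sequencing. They were chosen by symbol from the 31053 genes of the deposited matrices, and all 7 were measured in every library. SN4741 is reported to be a clonal line from embryonic mouse substantia nigra, immortalized with a temperature-sensitive viral T antigen under the tyrosine hydroxylase promoter. By karyotyping, the study found the line to be unstable and polyploid, with chromosome complements that differed from cell to cell. The part of these differences in the results below was not tested. The labels give SN4741 as wild type and as neural precursor cells. Of the 8 libraries, 4 came from cells kept at 37 °C in 10% fetal bovine serum. The other 4 came from cells moved to 39 °C, where the T antigen is described as less active, and to 0.5% serum for 48 hours to induce differentiation. The activity of the T antigen was not measured here. Temperature and serum changed together, so their effects cannot be told apart, and "39 °C" below stands for both.

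TWIST1 and TWIST2 are basic helix-loop-helix factors that pair with E proteins. SNAI1, SNAI2, ZEB1 and ZEB2 are zinc finger repressors that bind E-boxes (CACCTG and its reverse complement CAGGTG) in the promoters of epithelial genes such as Cdh1, and PRRX1 is a paired-related homeobox factor of limb and craniofacial mesenchyme. Together they are known for the epithelial-mesenchymal transition, in which cells give up junctions and become motile, and for the delamination of the neural crest. In the developing brain ZEB1 and ZEB2 are also known to act in neural progenitors and in young neurons.

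After filtering, 18351 of 19125 cells remained, with 985 to 3494 cells and 17166686 to 29633818 unique molecular identifiers (UMIs, 1 per captured transcript) per library. The median cell held 6676 to 16665 UMIs. The lowest and the highest of these medians were both from 39 °C, in replicates 4 and 1. No pair of libraries shared more than 5 cell barcodes. Cells were assigned to a cell-cycle phase from the expression of S and G2/M genes, and G1 cells made up 20.6% to 28.7% of a library at 37 °C and 82.5% to 85.4% at 39 °C. The label G1 went to cells low in both gene sets, so cells out of the cycle could not be told apart from cycling G1 cells. The fixed markers of neural precursors were in part absent. Nes and Sox2 were measured at 467 and 55.4 CPM at 37 °C (UMI counts scaled to a common total per library), but Sox1, Sox3, Pax6 and Hes5 together gave 3 UMIs there and 1 at 39 °C. Of 13 such markers 5 were tested between temperatures. At an edgeR adjusted p under 0.05, 3 were higher at 39 °C (60%, against 31.5% of all genes) and 1 lower (20%, against 30.5%). The study describes Nes as having little or no expression at 39 °C. The mesenchymal markers numbered 9, and 7 were tested in the same way. At 39 °C 0 passed higher (against 31.5% of all genes) and 4 lower (57.1%, against 30.5%). Among the 9, Col1a2 (678 and 182 CPM at 37 and 39 °C) and Pdgfrb (80.7 and 71.6 CPM) were present. The markers Thy1 and Lum, and the mesenchymal gene Fap from outside the marker list, gave at most 3 UMIs at either temperature. Of 5 immune markers, Tyrobp was at 0 UMIs, Ptprc gave 3 and 5 UMIs, Aif1 15 and 14 and Cx3cr1 90 and 113 (edgeR adjusted p of 0.0621 or more for Ptprc, Aif1 and Cx3cr1). The fifth, the lysosomal gene Cd68, rose from 17.1 to 29.0 CPM (0.75 on the log2 scale, edgeR adjusted p = 1.89e-08). Of 5 endothelial markers, Cdh5 and Cldn5 were at 0 UMIs, Kdr gave 0 and 2 and Tek 54 and 34, and Pecam1 rose at a low level, from 0.240 to 0.631 CPM (edgeR adjusted p = 0.00149). The part of other cell types in the results was not tested.

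In RefSeq promoter windows of 300 bases (250 before and 50 after a start site), the E-box CACCTG, on either strand, was present in 20.2% of 32851 windows. Windows were given for 5 of the 7 genes. Of these, only Snai1 held it, and Twist1, Twist2, Prrx1 and Zeb2 held no CANNTG of any kind, which 72.3% of all windows did. No match says only that these letters are not in the window. The 250 bases before the start of Snai1 are shown because SNAI1 binds these letters and Snai1 is among the genes that rose, and those of Twist1 and Twist2 because this pair moved in opposite directions (GRCm38.p6, RefSeq, plus strand, 5′ to 3′, E-box in capitals, starting at position -126 from the Snai1 start).
Snai1, chr2:167537945-167538194: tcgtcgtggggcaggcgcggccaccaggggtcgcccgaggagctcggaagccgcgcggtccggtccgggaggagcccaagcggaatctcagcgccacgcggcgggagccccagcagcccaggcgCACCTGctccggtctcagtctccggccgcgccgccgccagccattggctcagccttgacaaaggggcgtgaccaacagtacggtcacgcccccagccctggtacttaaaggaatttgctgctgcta
Twist1, chr12:33957421-33957670: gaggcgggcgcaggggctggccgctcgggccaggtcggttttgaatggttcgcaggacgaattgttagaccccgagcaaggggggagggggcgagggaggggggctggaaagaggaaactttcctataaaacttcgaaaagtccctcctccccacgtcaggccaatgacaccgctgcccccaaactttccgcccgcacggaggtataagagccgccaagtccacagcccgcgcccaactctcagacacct
Twist2, chr1:91801211-91801460: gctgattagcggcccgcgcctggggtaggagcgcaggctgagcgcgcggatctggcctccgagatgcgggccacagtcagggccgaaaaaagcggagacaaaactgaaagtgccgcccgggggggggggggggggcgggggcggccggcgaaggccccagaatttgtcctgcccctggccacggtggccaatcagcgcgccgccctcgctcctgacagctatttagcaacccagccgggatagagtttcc
These 3 windows were rich in CpG: the 300 bases held 34 CpG in Snai1, 27 in Twist1 and 25 in Twist2, against 6 in Prrx1 and a median of 7 over all windows.

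Twist1 lies at chr12:33957671-33959829, Twist2 at chr1:91801461-91848028, Snai1 at chr2:167538195-167542814 and Snai2 at chr16:14705852-14709385, all on the plus strand of GRCm38. Zeb2 lies at chr2:44983632-45117395 and Prrx1 at chr1:163245119-163313710 on the minus strand, and Zeb1 lies on chromosome 18.

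To compare the temperatures, UMIs were summed over the cells of each library and given as CPM of the genes tested, scaled by TMM factors, which correct the totals for composition. Of the 7 genes, 6 passed an adjusted p of 0.05 (edgeR quasi-likelihood test, Benjamini-Hochberg over 15810 genes): Snai1, Zeb2 and Twist1 were higher at 39 °C and Zeb1, Twist2 and Prrx1 lower. This share has to be read against a background in which 62.0% of all genes passed, 31.5% higher and 30.5% lower, with a median log2 fold change of 0.02. None of the 7 reached the study's stricter limits (adjusted p under 0.01 and log2 fold change over 1.5 in size), which 5.83% of all genes did. For each of these 6 genes no 39 °C library fell within the 37 °C range, which held for 56.7% of all genes.

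Twist1, a regulator of cranial mesoderm and neural crest mesenchyme, was measured at 59.2, 59.6, 63.5 and 59.7 CPM in 37 °C replicates 1 to 4 and at 86.1, 84.1, 84.3 and 81.2 CPM in 39 °C replicates 1 to 4. Every 39 °C library lay above every 37 °C library. The mean rose from 60.5 ± 1.99 to 83.9 ± 2.04 CPM (SD, n = 4 each), by 0.47 on the log2 scale (SE 0.0439, edgeR adjusted p = 1.62e-08). Between 1518 and 2380 UMIs stood behind each library's value.

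Twist2, its close paralogue of dermal and other connective tissue progenitors, gave 35.6, 37.3, 41.0 and 41.6 CPM at 37 °C and 30.4, 33.0, 34.1 and 35.3 CPM at 39 °C. The groups did not overlap, but the highest 39 °C library and the lowest 37 °C library were only a fraction of a CPM apart. Twist2 fell by 0.22 on the log2 scale (SE 0.0587, edgeR adjusted p = 0.00258; means 38.9 ± 2.90 and 33.2 ± 2.09 CPM). The annotated antisense gene Gm29100 overlaps Twist2 and gave 349 UMIs in all libraries, against 7648 for Twist2.

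Snai1, a repressor of Cdh1 whose protein is short-lived, was read from 178 to 375 UMIs per library. Its values were 8.02, 6.90, 8.66 and 7.51 CPM at 37 °C and 13.1, 12.5, 13.3 and 14.4 CPM at 39 °C, with no overlap. The rise from 7.77 ± 0.748 to 13.3 ± 0.8 CPM was a fold change of 1.71, or 0.77 on the log2 scale (SE 0.0769, edgeR adjusted p = 4.01e-08). It had the largest log2 fold change of the 7 genes.

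Snai2, which encodes the neural crest factor also called Slug, gave 27.7, 27.3, 24.6 and 23.1 CPM at 37 °C and 24.9, 29.0, 29.0 and 29.5 CPM at 39 °C. The groups overlapped, since 39 °C replicate 1 lay among the 37 °C libraries while the other three lay above them. The difference of 0.14 on the log2 scale (SE 0.0651) missed the threshold at an edgeR adjusted p of 0.0738. It passed without 39 °C replicate 1 (0.18, adjusted p = 0.0163) and without 37 °C replicate 2 (0.17, adjusted p = 0.0478).

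Zeb1, an E-box repressor of epithelial genes held down by miR-200 microRNAs, gave 97.0, 93.7, 89.1 and 96.9 CPM at 37 °C and 78.5, 79.6, 80.7 and 80.1 CPM at 39 °C. It fell by 0.24 on the log2 scale (SE 0.0442, edgeR adjusted p = 9.45e-05), from 94.2 ± 3.71 to 79.7 ± 0.939 CPM. Its paralogue Zeb2, also a partner of SMAD proteins, went the other way. Zeb2 gave 60.0, 60.4, 57.3 and 56.0 CPM at 37 °C and 82.8, 85.7, 84.9 and 83.0 CPM at 39 °C. The rise from 58.4 ± 2.13 to 84.1 ± 1.41 CPM was 0.53 on the log2 scale (SE 0.0438, edgeR adjusted p = 3.28e-09). For neither gene did any library of a temperature reach the range of the other. The antisense gene Zeb2os gave 438 UMIs in all, against 14813 for Zeb2.

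Prrx1 gave 227, 210, 212 and 218 CPM at 37 °C and 189, 191, 185 and 181 CPM at 39 °C. All 39 °C libraries lay below all 37 °C libraries. The gene fell by 0.22 on the log2 scale (SE 0.0454, edgeR adjusted p = 0.000365), from 217 ± 7.57 to 187 ± 4.22 CPM, on 3328 to 6611 UMIs per library. Gm26523, a noncoding gene on the same strand within its bounds, gave 1996 UMIs in all, against 42591 for Prrx1.

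**Figure D1:**
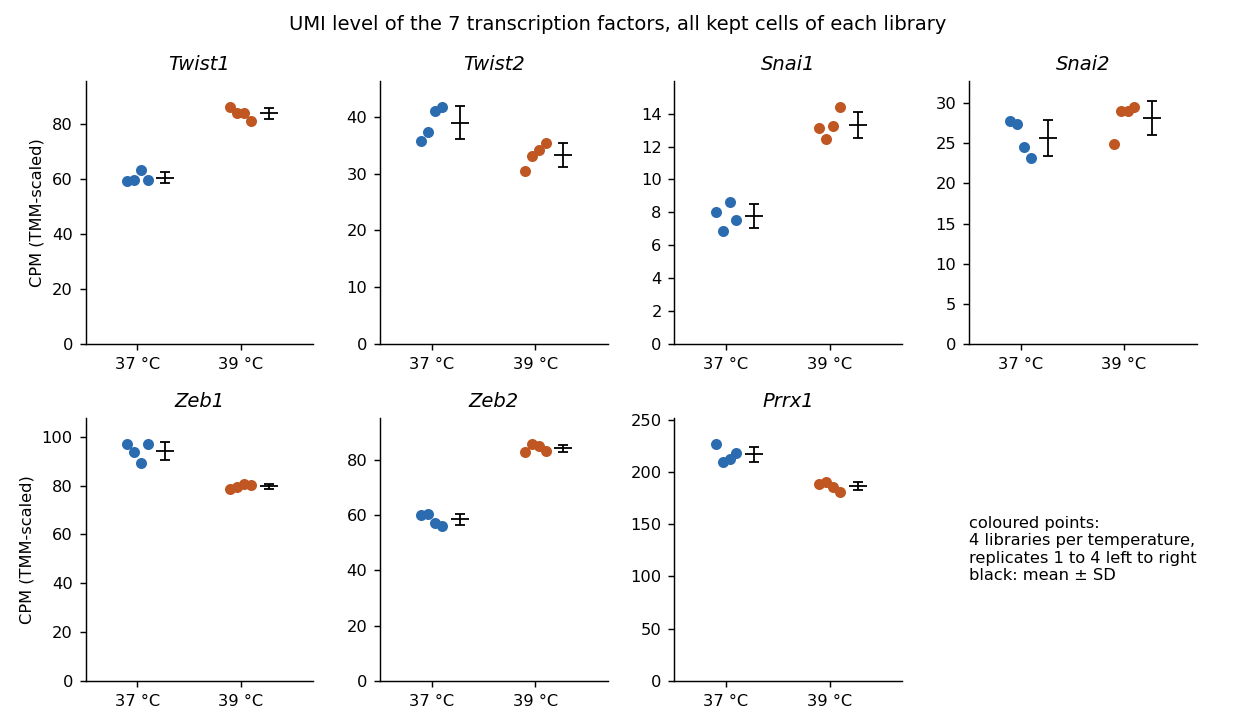
TMM-scaled CPM of each of the 7 genes in all kept cells of each library, at 37 °C (left) and 39 °C (right); points are libraries and the bars beside them mean ± SD of 4. Snai1, Zeb2 and Twist1 sit higher at 39 °C, and Zeb1, Twist2 and Prrx1 sit lower. The Snai2 libraries, which span 23.1 to 29.5 CPM over both temperatures, overlap.

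Each of the pairs Twist1 and Twist2, Snai1 and Snai2, and Zeb1 and Zeb2 thus had one gene that passed higher and one that passed lower or did not pass. The ratio of raw UMIs of the paralogues within a library needs no scaling factor, and it was examined after these values were seen, so it is given without a test. Twist1 to Twist2 was 1.66, 1.6, 1.55 and 1.43 at 37 °C and 2.83, 2.55, 2.47 and 2.30 at 39 °C. Snai1 to Snai2 was 0.290, 0.252, 0.352 and 0.325 at 37 °C and 0.526, 0.429, 0.457 and 0.488 at 39 °C. In both pairs every 39 °C library had the higher ratio.

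Zeb2 to Zeb1 was 0.618, 0.645, 0.643 and 0.578 at 37 °C and 1.05, 1.08, 1.05 and 1.04 at 39 °C, where Zeb2 gave slightly more UMIs than Zeb1 in all 4 libraries. The same ratio for Prrx2, the paralogue of Prrx1, to Prrx1 was 1.10 to 1.15 at 37 °C and 1.89 to 2.05 at 39 °C. Prrx2 itself rose from 245 ± 6.48 to 367 ± 6.33 CPM (0.58 on the log2 scale, SE 0.0454, edgeR adjusted p = 1.25e-09). The mean log2 ratio differed between temperatures by 0.70 for the Twist pair, 0.65 for the Snai pair, 0.77 for the Zeb pair and 0.80 for the Prrx pair. Within G1 cells these differences were 0.51, 0.71, 0.75 and 0.74, within S cells 0.74, 1.07, 0.56 and 0.64, and within G2/M cells 0.81, 0.67, 0.16 and 0.49. In G2/M cells the libraries of the temperatures overlapped for the Snai pair (log2 ratios of -1.90 to -1.23 and -1.94 to 0.09) and the Zeb pair (-0.73 to -0.56 and -0.76 to -0.29). Zeb2 gave fewer UMIs than Zeb1 in S and G2/M cells at 39 °C, with mean log2 ratios of -0.21 and -0.48, and slightly more in G1 cells (0.14).

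**Figure D2:**
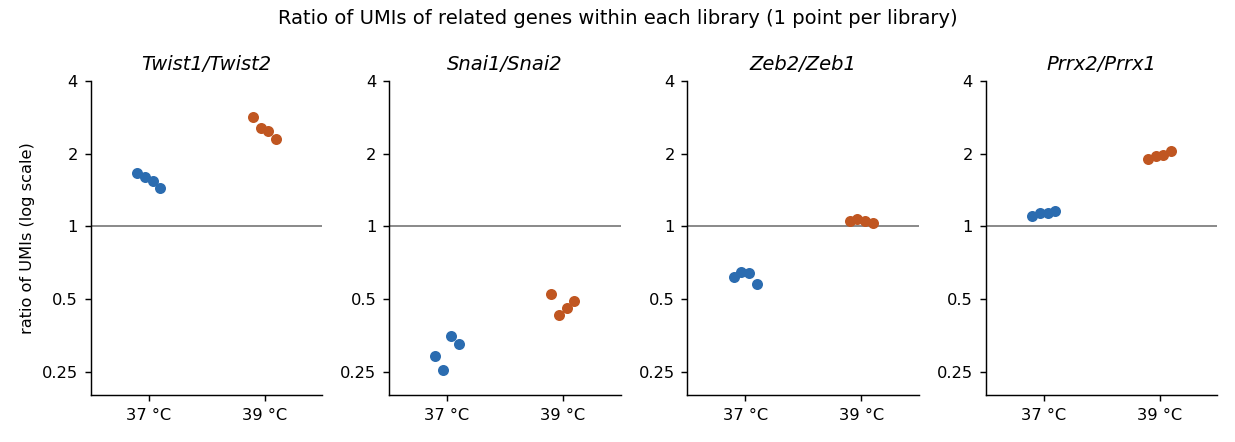
Ratio of raw UMIs of 2 related genes within each library on a log axis, at 37 °C and 39 °C, 1 point per library; the grey line marks equal UMIs. The ranges of the temperatures do not overlap in any of the 4 pairs, and Zeb2 to Zeb1 passes from at most 0.645 at 37 °C to at least 1.04 at 39 °C.

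Because the phases were so unevenly spread over the temperatures, the 7 genes were also compared within each phase, on sums over the G1, S or G2/M cells of each library. The phase genes included none of the 7. In G1 cells 6 of the 7 passed, against 47.1% of 14712 genes, and every gene but Snai2 had the sign it had in all cells. Zeb1 fell by 0.47 on the log2 scale (SE 0.0488, edgeR adjusted p = 3.49e-08) and Prrx1 by 0.41 (SE 0.0475, adjusted p = 1.70e-07), and in both cases the size of the difference was larger than in all cells, without a test of that contrast.

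Zeb1 in G1 cells was 110, 109, 111 and 113 CPM at 37 °C and 77.2, 79.9, 80.9 and 81.0 CPM at 39 °C. Snai2 in G1 cells was 37.4, 44.2, 36.2 and 34.5 CPM at 37 °C and 26.9, 31.4, 32.1 and 32.0 CPM at 39 °C, with no overlap, as for 44.0% of all genes. Snai2 thus fell in G1 cells by 0.31 on the log2 scale (SE 0.0766, edgeR adjusted p = 0.00196), while its all-cell value was slightly above 0. With phases scored within each library, which moves cells between phases, the G1 difference of Snai2 was -0.09 (edgeR adjusted p = 0.271). Twist1 (0.37), Snai1 (0.40) and Zeb2 (0.28 on the log2 scale) rose in G1 cells (edgeR adjusted p = 3.53e-06, 0.00172 and 0.000147). The Twist2 libraries overlapped there, and its difference of -0.14 (SE 0.0825) had an edgeR adjusted p of 0.188.

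In S cells all 7 genes passed, against 43.5% of 13740 genes. Snai2 fell by 0.60 on the log2 scale (SE 0.110, edgeR adjusted p = 4.08e-05), from 26.3 ± 1.53 to 17.3 ± 1.40 CPM, and Prrx1, Twist2 and Zeb1 fell by 0.42, 0.35 and 0.24. Twist1 and Zeb2 rose by 0.40 and 0.33. Snai1 rose by 0.53 (SE 0.184, edgeR adjusted p = 0.0196), but its libraries overlapped, and without 39 °C replicate 4 the value was 0.28 (adjusted p = 0.286).

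G2/M cells were few at 39 °C (29 to 187 per library, 449856 to 1483712 UMIs), and 3 of the 7 genes passed there, against 29.7% of 13802 genes. Prrx1 fell from 195 ± 6.24 to 130 ± 14.6 CPM, a difference of -0.57 on the log2 scale (SE 0.0865, edgeR adjusted p = 2.43e-06). Twist1 rose by 0.47 (SE 0.0989, adjusted p = 0.000305). Zeb2 rose by 0.27 (SE 0.102, edgeR adjusted p = 0.0430), with overlapping libraries, and missed the threshold when any of replicates 2, 3 and 4 of either temperature was left out (adjusted p 0.0521 to 0.127). Zeb1 differed by 0.06 (SE 0.0936, adjusted p = 0.671), at 83.3 ± 4.56 and 87.2 ± 5.64 CPM. Snai1 had only 3, 6, 16 and 10 UMIs in the 39 °C libraries and Snai2 3, 23, 15 and 26, and neither passed (0.18, adjusted p = 0.686, and -0.35, adjusted p = 0.235). Twist2 gave -0.31 (edgeR adjusted p = 0.0650) and passed without 37 °C replicate 1 (-0.34, adjusted p = 0.0471) or 39 °C replicate 3 (-0.42, adjusted p = 0.0410).

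**Figure D3:**
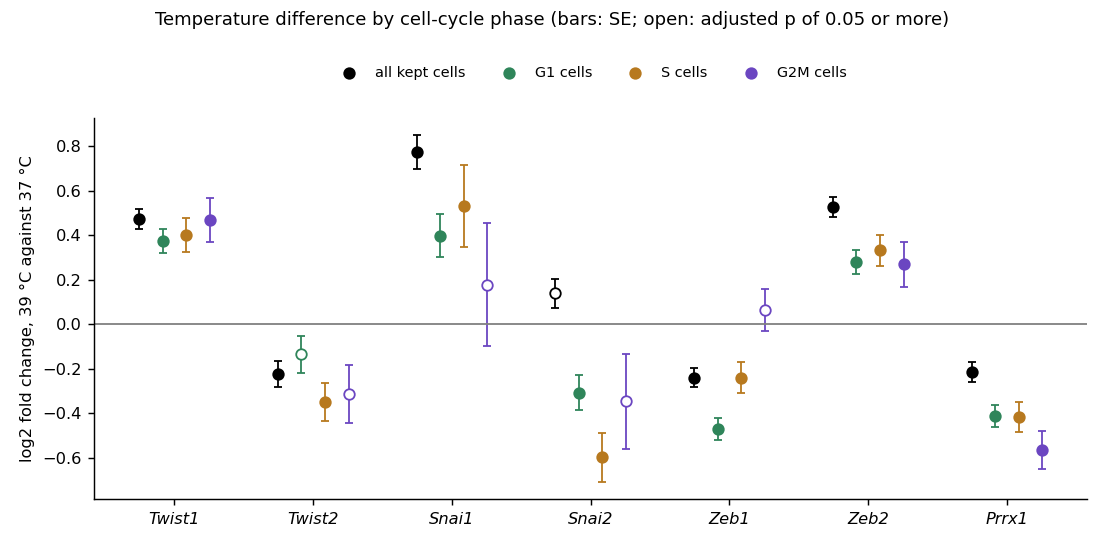
Log2 fold change between 39 °C and 37 °C of each of the 7 genes in all kept cells and in cells assigned to G1, S and G2/M; bars are the SE of the fit and open symbols mark an adjusted p of 0.05 or more. Snai2 lies at 0.14 in all cells but at -0.31 in G1 and -0.60 in S cells, and Zeb1 lies at -0.47 in G1 and 0.06 in G2/M cells.

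The phases themselves were then compared within libraries, with the library as a block and all 24 sums of 8 libraries and 3 phases in 1 fit. Averaged over the temperatures, 6 of the 7 genes were lower in G2/M than in G1 cells, against 22.7% of 14172 genes, and none was higher. The difference was -1.05 on the log2 scale for Snai2 (SE 0.0880, edgeR adjusted p = 1.72e-17), -0.77 for Snai1 (SE 0.130, adjusted p = 6.38e-07), -0.51 for Prrx1 (SE 0.0368, adjusted p = 1.45e-20) and -0.47 for Zeb2 (SE 0.0483, adjusted p = 1.35e-13). Twist1 and Zeb1 both gave -0.17 (edgeR adjusted p = 0.00318 and 0.00123), and Twist2 gave -0.10 (SE 0.0705, adjusted p = 0.285). At 39 °C alone, Twist1 (-0.11, edgeR adjusted p = 0.406) and Zeb1 (0.11, adjusted p = 0.328) did not pass. Between S and G1 cells, Snai2 (-0.69), Snai1 (-0.49), Zeb2 (-0.30) and Prrx1 (-0.22) were lower in S, 4 of the 7 genes against 27.1% of all genes, with edgeR adjusted p from 4.83e-15 for Snai2 to 1.09e-05 for Snai1.

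At 37 °C, Snai2 went from 38.9 ± 4.39 CPM in G1 to 26.3 ± 1.51 in S and 18.9 ± 2.63 in G2/M cells. At 39 °C it went from 30.4 ± 2.58 to 17.4 ± 1.48 and 13.8 ± 6.91 CPM, so within each phase its mean was lower at 39 °C. Prrx1 went from 264 ± 4.47 to 193 ± 6.42 CPM between G1 and G2/M at 37 °C and from 193 ± 2.18 to 128 ± 14.7 CPM at 39 °C.

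Of the 7 genes, 1 passed the test of whether its phase difference depended on temperature, namely Zeb1. At 37 °C it was 113 ± 1.64 CPM in G1, 99.5 ± 5.20 in S and 82.6 ± 4.58 in G2/M cells, a G2/M difference of -0.45 on the log2 scale (edgeR adjusted p = 2.02e-14). At 39 °C it was 79.3 ± 2.07, 84.9 ± 7.17 and 86.2 ± 5.47 CPM, a difference of 0.11 (adjusted p = 0.328). The test of the difference between the temperatures gave 0.56 (SE 0.0931, edgeR adjusted p = 7.49e-06), where 7.06% of all genes passed. For S against G1 cells the same test gave 0.26 for Zeb1 (SE 0.0716, edgeR adjusted p = 0.00815), where 9.95% of all genes passed. This second value missed the threshold without 39 °C replicate 1 (0.16, adjusted p = 0.181) or replicate 2 (0.23, adjusted p = 0.0598). For the other 6 genes the temperatures were not shown to differ in their phase differences, with edgeR adjusted p of 0.252 or more. With Seurat's updated phase lists Zeb1 still passed for G2/M (0.44, adjusted p = 0.000305) and Prrx1 passed as well (-0.23, adjusted p = 0.0462), while for S cells Zeb1 missed the threshold (0.19, adjusted p = 0.0592) and Twist2 passed (-0.31, adjusted p = 0.0362).

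**Figure D4:**
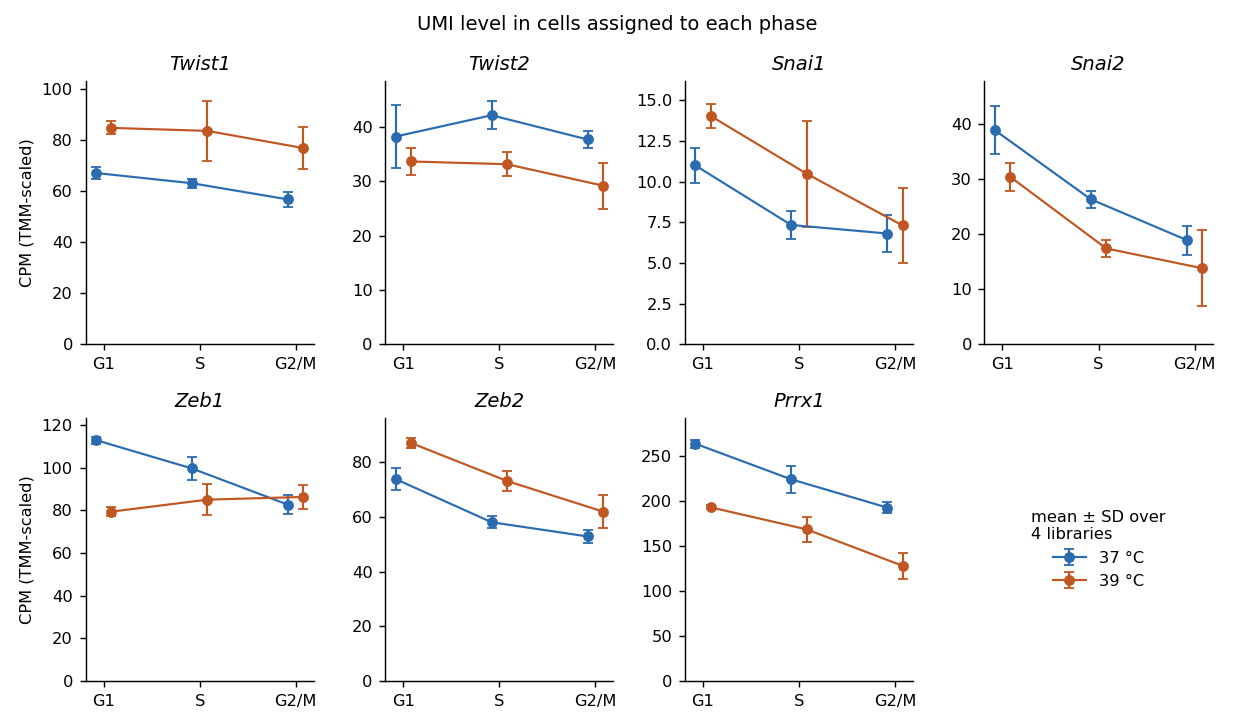
TMM-scaled CPM of the 7 genes in cells assigned to G1, S and G2/M, at 37 °C (blue) and 39 °C (orange), as mean ± SD over 4 libraries. Snai2 descends from G1 to G2/M at both temperatures, whereas Zeb1 descends at 37 °C (113 to 82.6 CPM) and not at 39 °C (79.3 to 86.2 CPM).

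To see how many cells held the transcripts, each cell was thinned at random to 5000 UMIs, since libraries differed in depth, and cells with fewer were left out (668 of 8550 at 37 °C and 1668 of 9801 at 39 °C). A Zeb2 UMI was found in 25.3%, 23.8%, 24.2% and 23.7% of cells at 37 °C and in 33.2%, 30.9%, 33.7% and 33.0% at 39 °C, a difference of 8.45 percentage points. A Twist1 UMI was found in 24.5% to 27.0% of cells at 37 °C and 30.8% to 34.7% at 39 °C, and a Snai1 UMI in 3.00% to 3.89% and 4.95% to 6.68%. These shares were thus higher in every 39 °C library.

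The share with a Prrx1 UMI was 57.3% to 62.4% at 37 °C and 51.2% to 54.1% at 39 °C, that with a Zeb1 UMI 35.0% to 37.2% and 29.7% to 33.5%, and that with a Twist2 UMI 15.2% to 18.4% and 13.0% to 15.1%. For Snai2 the shares overlapped, at 9.59% to 11.6% and 11.3% to 13.2% (two-sided exact permutation p = 0.0571). By the same exact permutation test the other 6 genes gave p = 0.0286 each, the smallest that the 70 assignments of 8 libraries allow, among 7 tests with no adjustment. Shares were compared for these 7 genes only, so no figure for all genes stands beside this count. For 56.7% of all genes the CPM ranges in all cells stayed apart, so the count alone does not set these genes apart. The Twist2 share missed 0.05 when 37 °C replicate 3 or any 39 °C library was left out, and the Zeb1 share without 37 °C replicate 4. Without thinning, none of the 7 reached 0.05: mean shares were 81.2% and 69.8% for Prrx1, 62.5% and 51.5% for Zeb1, 49.4% and 49.7% for Twist1, and 8.96% and 12% for Snai1. No cells in this single line were known to lack these genes, so no background share from free RNA could be set beside them. The part of free RNA in these shares was not tested. In G1 cells alone, 3 of the 7 shares reached 0.05, again without a figure for all genes. The thinned differences there were -12.5 points for Prrx1, -9.05 for Zeb1 and 0.827 for Snai1, each at p = 0.0286 by the same exact permutation test. The differences of Zeb2 and Twist1 were smaller than in all cells, at 4.09 and 4.62 points, and missed the threshold (exact permutation p = 0.0571 each), as did those of Twist2 (-2.21 points, p = 0.2) and Snai2 (-1.20 points, p = 0.571).

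**Figure D5:**
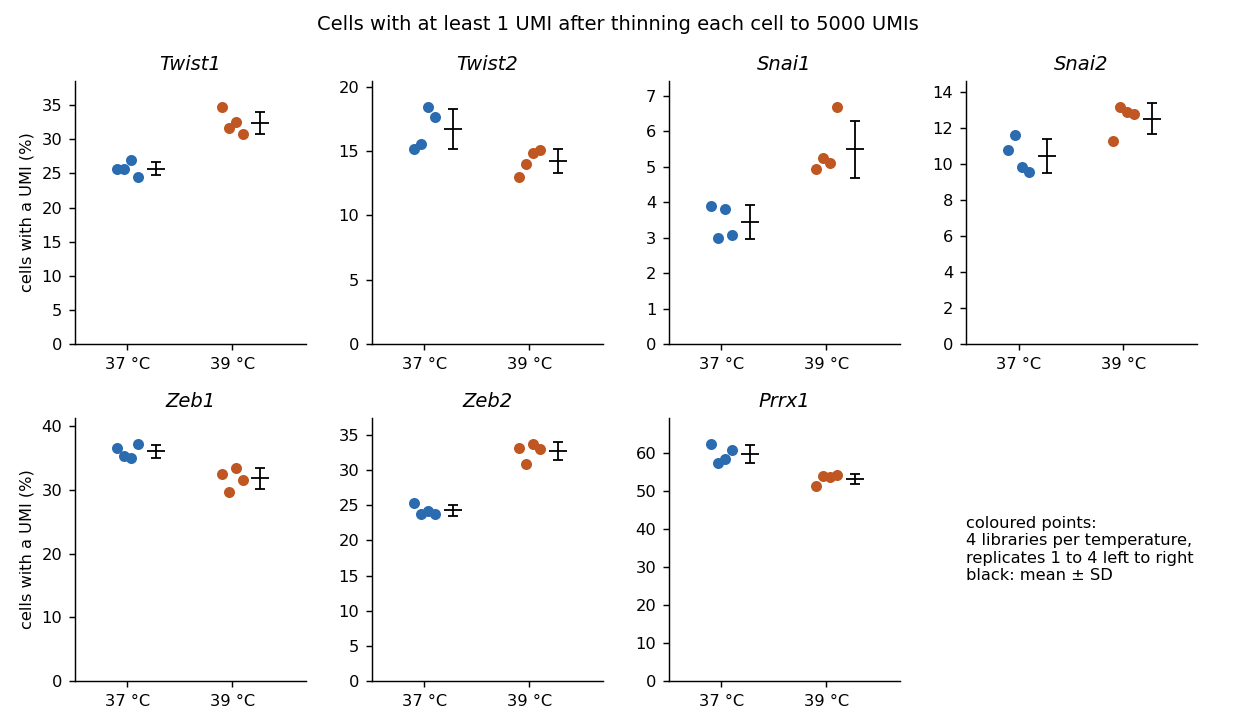
Percent of cells with at least 1 UMI of each gene after thinning each cell to 5000 UMIs, at 37 °C (left) and 39 °C (right); points are libraries and bars mean ± SD of 4. The Zeb2 share is 23.7% to 25.3% at 37 °C and 30.9% to 33.7% at 39 °C, and only the Snai2 libraries overlap.

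At the full depth a cell held UMIs of 2.24 to 3.59 of the 7 genes on average, depending on the library. At least 1 of the 7 was detected in 88.3% to 97.9% of the cells of a library, and all 7 in 2 to 20 cells of a library. In thinned cells a mean of 1.76 ± 0.0311 of the 7 genes was detected at 37 °C and 1.82 ± 0.0343 at 39 °C (SD over 4 libraries).

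Across the thinned cells of a library, Prrx1 counts varied more than those of most genes of like mean. The ratio of variance to mean was 1.37 to 1.52 at 37 °C and 1.36 to 1.57 at 39 °C, at the 85.0th to 91.5th percentile of 200 like genes of the same library, whose median was 1.11 to 1.14. Twist1 had ratios of 1.10 to 1.27 at 37 °C and 1.31 to 1.39 at 39 °C, at the 78.5th to 92.0th and the 94.0th to 98.5th percentile. Snai2 lay at the 61.5th to 97.0th percentile at 37 °C and the 94.5th to 98.0th at 39 °C. Zeb1 was closer to the middle, at the 47.5th to 82.0th percentile over all libraries. These ratios include the spread between phases and any from differences in chromosome number, whose parts were not tested.

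Pairs of the genes were found in the same thinned cells about as often as the product of their shares gives, with pooled ratios over the pairs of 0.813 to 1.23 at 37 °C and 0.832 to 1.16 at 39 °C. Snai2 with Prrx1 was found 1.11 times as often at 37 °C (1.09 to 1.13 over libraries) and 1.16 times at 39 °C (1.13 to 1.21). Twist1 with Zeb2 was found 1.05 times as often at 37 °C (0.999 to 1.15) and 1.13 times at 39 °C (1.10 to 1.19), so the library ranges overlapped. Zeb1 with Prrx1 was found 1.01 and 0.998 times as often. All of these ratios also include differences between phases, whose part was not tested. Snai1 and Snai2, the pair with the lowest pooled ratio at 37 °C, shared only 23 cells there and 62 at 39 °C, too few to read.

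Over the 24 sums of library and phase, the log2(CPM + 1) of the genes followed different genes, among 6412 of at least 20 CPM. Points share libraries, and temperature and phase move together through them, so the correlations are a description. Zeb2 was closest to Slit2 (Pearson r = 0.98), Aox1 (0.96) and Slc7a2 (0.96), and Prrx1 to Wls (0.97), Trim16 (0.96) and Pdlim2 (0.95). Snai2 had Cav1 (0.94) and Mtss1 (0.93) among its closest, and Twist1 was closest to Peak1, Ccdc74a and Dnmt3a (0.90 each). Snai1 was closest to Pir (0.89), Zfp609 (0.88) and Frmd6 (0.86), and Twist2 to Brk1, Tomm20 and Pitpna (0.89 each). Zeb1 had the loosest neighbours, 2210016L21Rik (0.79), Ndufaf1 (0.78) and Camk1 (0.78). Among the 7 genes themselves, Prrx1 with Snai2 gave r = 0.86, Snai1 with Zeb2 0.83, Twist1 with Zeb2 0.74 and Twist1 with Twist2 -0.43, each over n = 24 sums.

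Of 9 partner and antagonist genes of TWIST proteins, 7 were tested in all cells, 6 passed higher (85.7%, against 31.5% of all genes) and 1 lower (14.3%, against 30.5%), with a median log2 fold change of 0.50 against 0.02 over all genes. The same backgrounds, with 62.0% for either direction, hold for the other lists in all cells. These all-cell values also carry the uneven spread of phases over the temperatures. The inhibitors Id4 (1.86, SE 0.0945, 5.49 to 20.1 CPM), Id2 (1.40, SE 0.0628) and Id1 (0.77, SE 0.0539), whose proteins bind E proteins and keep them from DNA, had the largest rises (edgeR adjusted p = 2.44e-12, 3.90e-13 and 2.48e-10). The E protein gene Tcf3 fell by 0.30 on the log2 scale (SE 0.0496, edgeR adjusted p = 2.66e-05). In G1 cells 5 of the 7 tested passed, all of them higher (71.4%, against 47.1% of all genes in either direction). With 0 passing lower there (against 22.4% of all genes), the fall of Tcf3 did not pass in G1 cells.

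Of 16 co-repressors known to work with SNAIL and ZEB proteins, all were tested, 2 passed higher and 9 lower (median -0.16). The 68.8% that passed in either direction was near the 62.0% of all genes, so the number that passed is no result about the list, while 56.3% passed lower against 30.5%. In G1 cells 4 passed higher and 7 lower (43.8% lower, against 22.4% of all genes), with a median of -0.08. Ezh2, the methyltransferase of Polycomb repression, fell from 123 ± 4.18 to 43.5 ± 1.82 CPM (SD, n = 4 each), while Prmt5, an arginine methyltransferase gene, fell by 0.71 on the log2 scale (SE 0.0534) and the deacetylase gene Hdac1 by 0.61 (SE 0.0524), with edgeR adjusted p = 2.51e-15, 7.89e-10 and 4.78e-09. Of 12 genes for turnover of these proteins, 7 passed higher (58.3%, against 31.5% of all genes) and 3 lower (25%, against 30.5%), with a median of 0.21. Usp27x, a deubiquitinase, rose by 0.93 (SE 0.116, edgeR adjusted p = 9.02e-07), and the ubiquitin ligase genes Mdm2 and Siah1a rose by 0.77 (SE 0.0540, adjusted p = 2.47e-10) and 0.75 (SE 0.0528, adjusted p = 2.64e-10).

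TGF-beta and BMP pathways carry signals that switch on this family in many cells. The list of 24 pathway genes holds ligands, receptors and SMADs, but also inhibitors such as Smad6, Smad7, Nog and Grem1. Of the 24, 19 passed higher (79.2%, against 31.5% of all genes) and 4 lower (16.7%, against 30.5%), with a median of 0.58. Because inhibitors are among them, these counts do not give the direction of the signal. The BMP antagonist Grem1 rose by 2.37 on the log2 scale (SE 0.164, 2.92 to 15.1 CPM, edgeR adjusted p = 2.29e-10) and the ligand gene Bmp2 by 1.88 (SE 0.0873, 5.58 to 20.5 CPM, adjusted p = 6.44e-13), while the ligand gene Tgfb2 fell by 1.12 on the same scale (SE 0.0509, 162 to 74.9 CPM, adjusted p = 4.82e-13). Of 27 other mesenchymal transcription factor genes 22 were tested, 11 passed higher and 5 lower (median 0.29), 72.7% in either direction against 62.0% of all genes. Fosl1, an AP-1 subunit gene, rose by 1.30 (SE 0.0650), the cartilage and neural crest factor gene Sox9 by 1.29 (SE 0.0790) and the homeobox gene Msx2 by 1.22 (SE 0.119), with edgeR adjusted p = 1.99e-12, 3.59e-11 and 3.02e-08.

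Of 30 epithelial genes that the family is known to repress, 21 were tested, 5 passed higher and 5 lower, and most of the rest were barely measured. The 47.6% that passed lay below the 62.0% of all genes. Cdh1, which encodes E-cadherin, gave 12 UMIs at 37 °C and 5 at 39 °C, Epcam 0 and 2, and the splicing factor gene Esrp1 0 at both, which over each temperature allows up to 3 UMIs. The keratin gene Krt19 fell by 2.22 on the log2 scale (SE 0.0600, 92.1 to 19.8 CPM, edgeR adjusted p = 2.50e-16), while the desmosome gene Dsp rose by 1.36 (SE 0.0760, 11.3 to 29.0 CPM, adjusted p = 9.29e-12) and Krt7 by 0.77 (SE 0.0530, 29.1 to 49.7 CPM, adjusted p = 1.93e-10). The others that passed lower (Krt8, Krt18, Cldn1 and Cldn3) were under 1 CPM at both temperatures. Krt18, with 9 and 0 UMIs, lay below the list's median also with 3 UMIs in place of 0. It met the count limit for testing through its 37 °C UMIs alone, so its call as lower is no evidence of a direction. The median of -0.53 ranged from -0.81 to 0.34 over the alternatives, so the list gave no stable direction.

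A promoter window was given for 18 of the 30 genes, and 15 of the 18 held CACCTG on either strand (83.3%, against 22.6% of all genes with a window). The list was made of genes known to be repressed by this family, whose repressors bind this E-box. An excess of it may follow from that choice and is no independent result. The windows of Epcam and Krt7 are shown as those of a gene near 0 and of a gene that rose, and were picked after their values were seen (same build and marking, 250 bases before the start, E-boxes from positions -187 and -19 in Epcam and -44 in Krt7).
Epcam, chr17:87635729-87635978: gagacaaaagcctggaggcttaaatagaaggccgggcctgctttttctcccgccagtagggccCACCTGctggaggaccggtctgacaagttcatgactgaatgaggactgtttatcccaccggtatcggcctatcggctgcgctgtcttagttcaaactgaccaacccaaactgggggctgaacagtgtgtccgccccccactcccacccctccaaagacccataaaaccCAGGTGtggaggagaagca
Krt7, chr15:101412153-101412402: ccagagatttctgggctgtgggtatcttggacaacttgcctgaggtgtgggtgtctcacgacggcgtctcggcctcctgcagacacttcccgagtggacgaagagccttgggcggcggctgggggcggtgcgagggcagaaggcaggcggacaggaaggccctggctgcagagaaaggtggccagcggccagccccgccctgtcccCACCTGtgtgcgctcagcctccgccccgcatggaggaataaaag
Epcam, with 2 E-boxes in these bases, was near 0 UMIs, and Krt7, with 1, was measured at 29.1 and 49.7 CPM. Binding to these E-boxes and its part in either value were not tested.

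Of 29 mesenchymal genes 26 were tested, 18 passed lower (69.2%, against 30.5% of all genes) and 1 higher (3.85%, against 31.5%), with a median of -0.38. The collagen gene Col3a1 fell by 3.48 on the log2 scale (SE 0.150, 11.9 to 1.01 CPM) and the contractile genes Tagln by 3.26 (SE 0.133, 95.6 to 9.69 CPM) and Acta2 by 3.14 (SE 0.105, 225 to 25.3 CPM), with edgeR adjusted p = 2.19e-13, 9.76e-14 and 5.58e-15. The gene that passed higher was Fn1, fibronectin (0.21, SE 0.0513, adjusted p = 0.00142). Cdh2, N-cadherin, fell by 0.28 (SE 0.0650, edgeR adjusted p = 0.000868) with overlapping libraries, and the intermediate filament gene Vim gave -0.06 (SE 0.0587, adjusted p = 0.372). In G1 cells 18 of 26 tested passed lower (69.2%, against 22.4% of all genes), with a median of -0.61. There 0 passed higher, so the rise of Fn1 did not pass in G1 cells.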

How the data were processed

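Single cells of 8 SN4741 libraries were captured with the Chromium Single Cell 3′ V3 kit. The authors aligned reads to mm10 with Cell Ranger 3.0.1 and deposited, per library, UMI counts for each gene and cell as whole numbers without normalization. The release of their gene annotation is not given in the sources used here. Positions come from GENCODE M21 (GRCm38) by Ensembl identifier and promoter windows from RefSeq by symbol.

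Following the study, kept cells had 200 to 6000 genes and at most 15% mitochondrial UMIs; no doublet caller was run beyond the gene limit. Phases were assigned with Seurat 5.3.0 (CellCycleScoring, 42 of 43 S and 52 of 54 G2/M genes found). UMI counts were summed per library, or per library and phase, because the cells of a library share its preparation. Genes averaging 1 count or more over libraries were tested with edgeR 4.0.16 in R 4.3.3 (TMM, glmQLFit, glmQLFTest, temperature alone), with Benjamini-Hochberg adjustment over all genes tested. Standard errors are the log2 fold change over the square root of F. Shares were compared in Python 3.11.15 by exact permutation tests (two-sided), and limits for a count of 0 (3 counts) cover counting error only.

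On simulated counts like those of all cells (15810 genes), 93 of 100 genes changed by 0.5 on the log2 scale were recovered, and on those of G2/M cells (13802 genes) 50 of 100. The changed genes were drawn above a lower limit on mean count, and sizes under 0.5 were not simulated. These shares therefore do not cover lower counts or smaller changes. The sources do not say whether replicates were separate cultures, so p-values measure the spread between libraries, which may be technical. Library pairs of 1 temperature differed by more than sampling error, with a chi-square of 2.85 to 21.4 per degree of freedom. Replicate numbers did not pair the samples: deviations of libraries with the same number correlated at -0.034, -0.011, 0.003 and 0.050.

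Besides the 7 genes, the 3 genes per list with the largest passing change at 5 CPM or more were named, plus Cdh1, Epcam, Cdh2 and Vim, and the 3 genes most like each of the 7; some results under these rules are not reported here. Tcf3, Fn1, Prrx2, Esrp1, Krt8, Krt18, Cldn1, Cldn3, the markers given in the text and the overlapping genes were named after their values were seen. The members and lists were chosen with earlier results of these data known. Alternatives were other scaling factors, filters, DESeq2 1.42.0, the replicate block, cell filters, equal cells or totals, phase assignments, thinning depths and each library left out. The UMI ratios were added after seeing the data.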

Additional observations from a re-analysis of the deposited data

Results flagged for a closer look

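In 78 groups of 4 libraries, 6 held a library that stood apart from the other three, where chance alone sets about 1 in 20 apart. At 37 °C, Twist1 in all cells was 63.5 CPM in replicate 3 and 59.2 to 59.7 CPM in the others. At 39 °C, replicate 1 stood apart for Snai2 in all cells (24.9 CPM, others 29.0 to 29.5), for Snai2 in G1 cells (26.9 CPM, others 31.4 to 32.1), for Zeb2 in G2/M cells (53.6 CPM, others 65.4 to 66.4) and for the thinned share of cells with a Prrx1 UMI (51.2%, others 53.7% to 54.1%). That library had the fewest cells (985) and the most UMIs per cell (median 16665); the part of either in these values was not tested. The share with a Snai1 UMI was 6.68% in 39 °C replicate 4 and 4.95% to 5.24% in the others.

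The phase difference of Zeb1 differed between temperatures by the test of the difference itself, by 0.56 on the log2 scale for G2/M against G1 cells and by 0.26 for S against G1 cells.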

How the results depend on the processing

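For the 7 genes, direction and side of the threshold were kept in 135 of 140 settings in all cells (the 5 exceptions all moved Snai2 past the threshold, at 0.16 to 0.18), 118 of 119 in G1, 55 of 56 in S and 47 of 56 in G2/M cells, and in 77 of 77 and 76 of 77 for the G2/M and S phase differences. In G2/M cells Snai1 ranged from -0.11 (without 39 °C replicate 3) to 0.33 with a library left out, and Twist2 passed without 37 °C replicate 1 (-0.34, edgeR adjusted p = 0.0471) or 39 °C replicate 3 (-0.42, adjusted p = 0.0410). The S difference of Twist1 ranged from -0.10 to 0.0035, the latter without 39 °C replicate 2. With the updated phase lists, 2 of the 7 genes (Zeb1 and Prrx1) and 1568 of all genes passed the G2/M difference between temperatures, against 1 and 1001. For the S difference between temperatures, leaving out a library gave 0 to 1 of the 7. With filterByExpr 2 epithelial genes passed lower, in place of 5, since fewer were tested, and leaving out a library gave 1 to 2 mesenchymal genes that passed higher. Without thinning, 0 of the 7 shares reached an exact p under 0.05 and Snai2 turned to -2.55 points; in G1 cells alone 3 did and Snai2 turned to -1.20. Leaving out 1 library, the Twist2 share missed 0.05 without 37 °C replicate 3 or any 39 °C library (exact p 0.0571 to 0.114) and the Zeb1 share without 37 °C replicate 4 (0.0571); at 2000 UMIs per cell the Prrx1 share missed it (0.0571) and the Snai2 share reached it (1.04 points, 0.0286). The cause of these moves was not tested except where stated.

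With the replicate block, 6 of the 7 genes passed in all cells and 6 in G1 cells, and 9617 and 6778 of all genes passed, against 9803 and 6933 without it; it changed no call on the 7 genes. DESeq2 passed 9073 genes in all cells. The median of all genes lay between 0.0003 and 0.051 over the scalings, filters and left-out libraries. In the 39 °C G2/M cells, Snai1 rested on 3 to 16 and Snai2 on 3 to 26 UMIs per library.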
